A study of Homo sapiens with 36 samples.

Results

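Integrin and laminin chains were followed as a group of 36 genes in HN4, HN6 and Cal27, 3 established cell lines from human squamous carcinoma of the head and neck. The genes were taken by symbol and no measured value entered the rule, but earlier results of these data were known when they were chosen. All 36 were found among the 58735 genes of the count table. They comprise 17 integrin alpha chains, 8 integrin beta chains and 11 laminin chains. Integrins are cell-surface receptors made of 1 alpha and 1 beta chain, and the pairing sets the ligand: ITGA5 with ITGB1 binds fibronectin, ITGAV with ITGB6 or ITGB8 binds latent transforming growth factor beta, and ITGA6 with ITGB4 binds laminin. Laminins are secreted trimers of an alpha, a beta and a gamma chain that build the basement membrane. In squamous epithelium the pair of ITGA6 and ITGB4 forms the core of hemidesmosomes, the junctions that tie keratin filaments to laminin containing LAMA3 and LAMB3.

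RNA was sequenced from 12 groups of 3 libraries. In an IL-8 experiment HN4, HN6 and Cal27 cells were given recombinant human interleukin-8 (IL-8), a neutrophil-attracting chemokine, at 100 ng per ml for 24 h, or were left untreated; the stated aim was to compare lines that differ in the IL-8 receptor CXCR1. In a plasmid experiment the same lines were transfected with a plasmid for ACLY, the lyase that splits citrate to give acetyl-CoA outside mitochondria, or with the vector. Exosome-depleted serum was used for every group. The labels number the libraries of a group but do not name separate cultures; the p-values below therefore rest on a spread between libraries that could be technical.

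Levels are given as CPM, the count per 1e6 counts of a library with TMM scaling, or, where genes are compared with each other, as CPM per kilobase of the deposited gene length. A member was called when edgeR's quasi-likelihood test gave a Benjamini-Hochberg adjusted p under 0.05 over all genes tested, and changes are fitted log2 differences. The 36 libraries held 16570601 to 20232735 counts. A gene with no count in a library could have had at most 0.148 to 0.181 CPM there, the worth of 3 counts and for counting error only. ACLY was 2212 ± 65.4 CPM in HN6 libraries labelled ACLY and 1902 ± 40.2 CPM in Cal27 libraries labelled ACLY, against 268 ± 4.98 and 230 ± 12.1 CPM in their vector libraries, but it was 349 ± 30.4 CPM in the HN4 libraries labelled ACLY against 1509 ± 10.0 CPM in those labelled vector (SD, n = 3 each). The HN4 plasmid libraries therefore go against their labels, and each direction drawn from them below is as labelled. Cal27 IL-8 replicate 3 and HN4 ACLY replicate 3 stood apart: mitochondrial transcripts took 1.06% and 2.15% of their counts, against 3.37% to 6.04% in the other libraries of those groups.

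Genes read in 1 line alone also moved in the treated Cal27 libraries. The 9 genes read in untreated HN4 (at least 20 CPM) and not in the HN6 and Cal27 controls (under 0.3 CPM) had a median of 54.1% ± 0.516 of their HN4 level in Cal27 ACLY libraries and 31.0% ± 1.91 in Cal27 IL-8 libraries, against 0% in Cal27 vector and untreated libraries. The 9 genes read in Cal27 controls alone had 24.6% ± 1.4 of their untreated Cal27 level in Cal27 ACLY libraries and 59.7% ± 4.97 in Cal27 IL-8 libraries, against 99.2% ± 2.85 in Cal27 vector libraries. No HN6 group had over 0.1% of either set. The squamous epithelial markers summed to 1374 to 7594 CPM, but not each was well read in each line. KRT5, EPCAM, SFN, DSP, CDH1 and TP63 were read in every group, the lowest mean being 109.9 CPM (TP63, untreated HN6). KRT14 was at 0 counts in HN4 untreated and HN4 ACLY libraries. It was at 0.688 CPM in untreated HN6, against 1017 CPM in untreated Cal27. KRT6A was at 5.72 CPM in untreated HN4 and 8.54 CPM in untreated HN6, against 647 CPM in untreated Cal27. An epithelial cell type was thus borne out in all 3 lines. The 8 leukocyte markers summed to 16.9 to 913 CPM, and in HN4 and Cal27 LCP1 made up most of that sum. LCP1 was at 419.7 ± 12.2 CPM in Cal27 ACLY and 265 ± 24.4 CPM in Cal27 IL-8 libraries, against 85.7 ± 1.06 CPM in Cal27 vector and 85.9 ± 3.37 CPM in untreated Cal27 libraries, and at 702 ± 25.5 CPM in untreated HN4. The defining marker PTPRC stayed at or near 0 counts in every group. Summed levels of platelet, endothelial and fibroblast markers stayed under 65 CPM.

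The 3 lines shared a set of well-read integrin and laminin chains, and 16 of the 36 members were hardly read. By group mean per kilobase, 12 members reached 10 in every group: the alpha chains ITGA2, ITGA3, ITGA5, ITGA6 and ITGAV, the beta chains ITGB1, ITGB4 and ITGB6, and the laminin chains LAMA3, LAMA5, LAMB3 and LAMC1. A further 8 (ITGAE, ITGAM, ITGB2, ITGB5, ITGB8, LAMA4, LAMB1 and LAMB2) reached 1 in at least 1 group and fell short of 10 in at least 1. The other 16 stayed under 1 in every group, among them chains known mainly from muscle (ITGA7), platelets (ITGA2B, ITGB3) and lymphocytes (ITGA4, ITGAL, ITGB7). ITGA8 had 6 counts over the 36 libraries and LAMC3 had 19, so both were at the limit of detection.

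**Figure D1:**
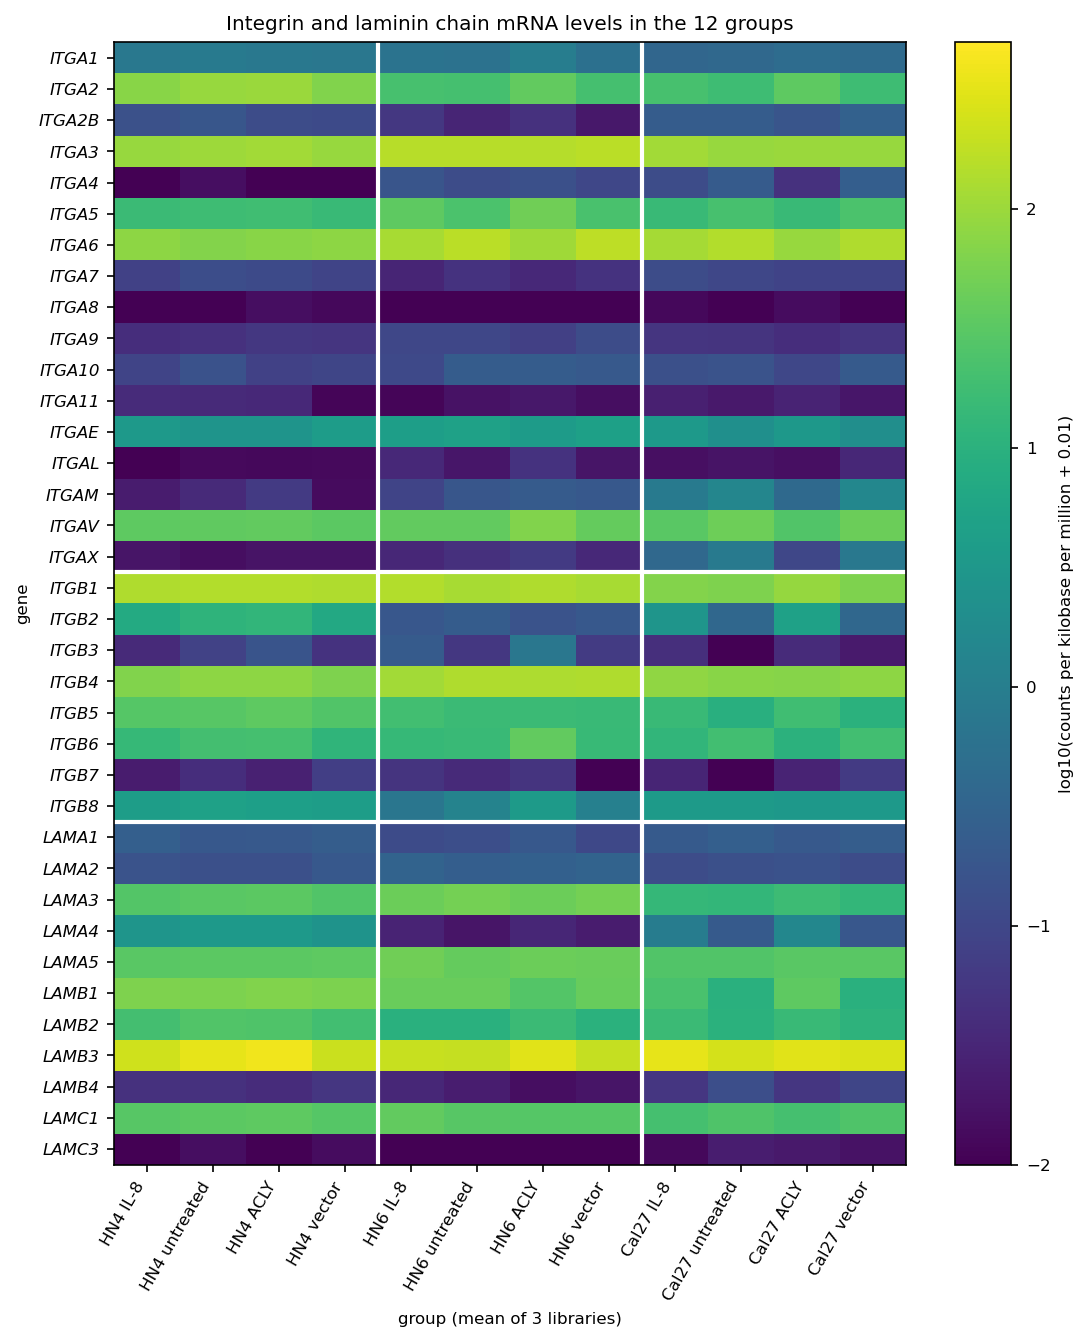
Heat map of the mean level of each member (rows) in each group (columns, 3 libraries each), as log10 of CPM per kilobase plus 0.01. LAMB3 has the brightest row, at 190 to 397 per kilobase by group, and the rows of ITGB2, LAMA4, ITGAM and ITGAX change most between lines.

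LAMB3, the beta chain of the anchoring laminin of epithelium, was the most abundant member in each untreated line. Per kilobase it stood at 336 ± 4.08 in HN4, 190 ± 10.5 in HN6 and 249 ± 13.5 in Cal27 (SD, n = 3 each). The collagen-binding alpha chain ITGA2 was at 93.7 ± 0.702 per kilobase in HN4, 20.2 ± 1.34 in HN6 and 17.4 ± 1.75 in Cal27, so HN4 stood apart while HN6 and Cal27 did not differ by the test. ITGA6, the laminin-binding alpha chain of hemidesmosomes, ran the other way, at 67.7 ± 2.57 per kilobase in HN4, 165 ± 7.75 in HN6 and 141 ± 8.37 in Cal27. Its partner ITGB4 was highest in HN6 at 140 ± 6.58 per kilobase, with 78.2 ± 1.94 in HN4 and 72.7 ± 6.78 in Cal27, which were not distinguished by the test. ITGB1, the shared partner of many alpha chains, was lowest in Cal27 at 62.5 ± 4.83 per kilobase, against 143 ± 3.66 in HN4 and 123 ± 7.99 in HN6.

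HN6 against HN4 differed in 25 of the 30 members tested, 12 higher and 13 lower, where 67.2% of all genes tested were called (32.4% higher and 34.7% lower). The members' median log2 difference was -0.17, against -0.03 over all genes tested. LAMA4, the alpha chain of endothelial and mesenchymal laminins, had 5 counts over the 3 untreated HN6 libraries and 2114 over the HN4 libraries. ITGB2, the beta chain of leukocyte integrins, was at 0.226 ± 0.00743 per kilobase in HN6 and 11.6 ± 0.0962 in HN4 (log2 difference -5.68, edgeR adjusted p = 1.56e-15). ITGB2 shares exon sequence with its antisense gene ITGB2-AS1, and with no strand setting stated, reads of the pair cannot be told apart. LAMB2 and ITGB8, an alternative laminin beta chain and a partner of ITGAV, were lower in HN6 by the test, with log2 differences of -1.46 and -1.98.

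Cal27 against HN4 differed in 22 of 30 members, 8 higher and 14 lower, where 63.6% of all genes were called (32.2% higher and 31.4% lower). Cal27 against HN6 differed in 25 of 30, 12 higher and 13 lower, where 68.4% of all genes were called (35.3% higher and 33.1% lower). Scaled by library totals, the Cal27 to HN6 differences of all genes shifted by 0.12 on the log2 scale and 13 members were higher and 10 lower. The shares of all genes called under that scaling are not given here. Myeloid alpha chains set Cal27 apart. ITGAM had 477 counts over the untreated Cal27 libraries, 8 over HN4 and 51 over HN6, and ITGAX had 338, 2 and 13 in the same order. Per kilobase these levels stayed low in Cal27, at 1.45 ± 0.126 for ITGAM and 0.824 ± 0.0664 for ITGAX, and the beta chain both are known to pair with, ITGB2, was at 0.362 ± 0.0631. Against HN6, the log2 differences were 3.09 for ITGAM (edgeR adjusted p = 2.87e-08) and 4.53 for ITGAX (edgeR adjusted p = 5.48e-09). ITGAM and ITGAX are neighbours on chromosome 16 with 22.2 kb between them.

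Cal27 also held less of the laminin chains LAMB1 and LAMA3. LAMB1, the beta chain of widely made laminins, was at 9.63 ± 0.585 per kilobase in Cal27 against 60.4 ± 0.976 in HN4 and 42.4 ± 1.18 in HN6. The log2 differences were -2.63 from HN4 (edgeR adjusted p = 1.72e-15) and -2.11 from HN6 (edgeR adjusted p = 2.46e-14). LAMA3, the alpha chain that joins LAMB3 in epithelial laminin, was at 12.6 ± 0.544 per kilobase in Cal27, against 52.1 ± 1.79 in HN6 (log2 difference -2.01, edgeR adjusted p = 6.96e-12). LAMA4 in Cal27 lay between the other lines, at 138 counts over the untreated libraries. The levels of each gene's 3 libraries in one line did not overlap those of the other line for any of these calls.

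The vector libraries of the plasmid experiment gave a second reading of the same lines. HN6 against HN4 had 26 of 31 members called, 14 higher and 12 lower, where 69.3% of all genes were called (34.7% higher and 34.6% lower). Cal27 against HN4 had 25, 11 higher and 14 lower, where 71.8% were called (35.6% higher and 36.1% lower). Cal27 against HN6 had 28, 13 higher and 15 lower, where 73.3% were called (36.7% higher and 36.6% lower). Of the members called in both experiments, 21 of 22 had the same direction for HN6 against HN4, 19 of 20 for Cal27 against HN4 and 24 of 24 for Cal27 against HN6. The exceptions were ITGB6 for HN6 against HN4 and LAMB3 for Cal27 against HN4, both involving the HN4 libraries labelled vector.

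The mix of chains differed between lines, with HN4 apart for ITGA2, ITGA6 and ITGB4 and Cal27 apart for LAMB3. Without treatment, ITGA2 made up 29.1% ± 0.308 of the summed integrin alpha level per kilobase in HN4, 4.92% ± 0.255 in HN6 and 5.36% ± 0.395 in Cal27, while ITGA6 made up 21.0% ± 0.834, 40.0% ± 1.59 and 43.7% ± 1.48. Among beta chains, ITGB4 took 27.3% ± 0.679 in HN4, 47.3% ± 2.4 in HN6 and 43.4% ± 3.6 in Cal27. Among laminin beta chains LAMB3 took 79.6% ± 0.206 in HN4, 78.5% ± 1.23 in HN6 and 92.7% ± 0.414 in Cal27. These shares are of mRNA within each chain class and do not measure paired receptors at the surface.

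**Figure D2:**
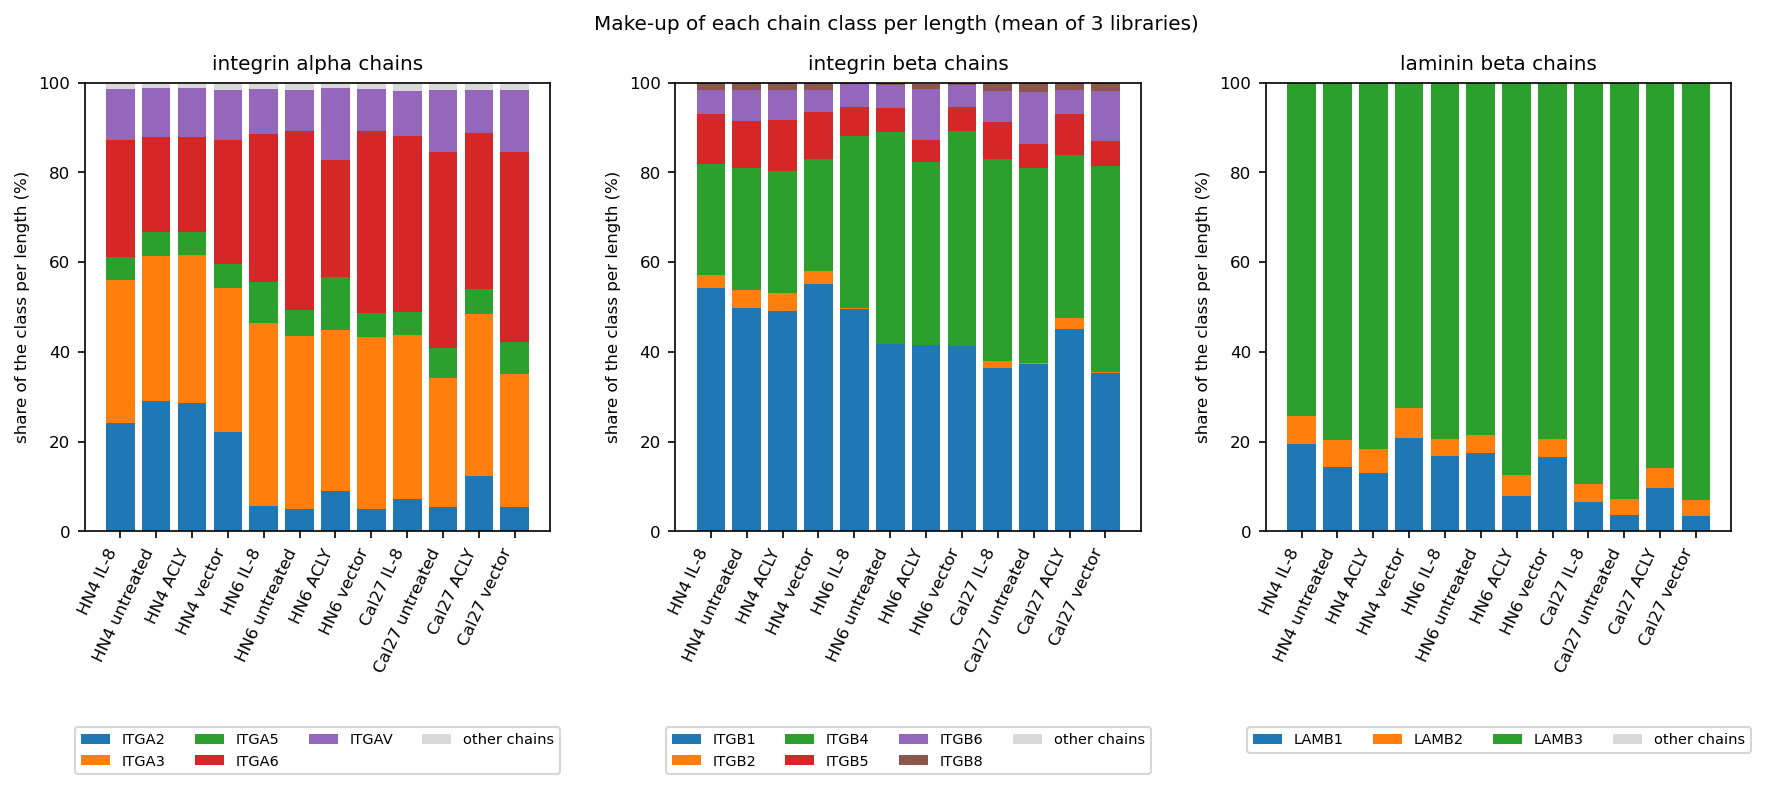
Stacked bars of the share of each chain in the summed level per kilobase of its class (percent, mean of 3 libraries) for integrin alpha, integrin beta and laminin beta chains in the 12 groups. ITGA2 takes 22.2% to 29.1% of the alpha class in the HN4 groups and 4.88% to 12.3% elsewhere, and LAMB1 takes 3.3% to 20.8% of the laminin beta class.

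HN6 cells with the ACLY plasmid held more mRNA of ITGA5 and of ITGAV with its partners ITGB6 and ITGB8, and less of ITGA6. Of the 31 members tested against vector, 11 rose and 5 fell, where 26.8% of all genes tested rose and 24.9% fell (51.6% in all). The share of members called equals that of all genes, so their number is not a result about integrins and laminins. Their median log2 change was 0.16, against 0.04 over all genes tested. Fewer cells of one kind and less RNA per cell cannot be told apart in such bulk libraries.

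The fibronectin receptor chain ITGA5 was at 364, 372 and 345 CPM in the HN6 ACLY libraries and 171, 170 and 175 CPM in the vector libraries. Every ACLY library was above every vector library, and the change was 2.10-fold (log2 1.07, SE 0.0521, edgeR adjusted p = 1.92e-18). ITGAV, which pairs with ITGB1, ITGB3, ITGB5, ITGB6 or ITGB8, had 537, 528 and 555 CPM in ACLY libraries against 327, 300 and 329 CPM in vector libraries, a 1.70-fold rise (edgeR adjusted p = 7.57e-14). Its epithelial partner ITGB6 was at 170, 176 and 180 CPM with ACLY and 69.4, 67.5 and 71.6 CPM with vector. That rise was 2.52-fold (log2 1.34, SE 0.0638, edgeR adjusted p = 1.1e-18), and the groups were far apart relative to their spread.

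ITGB8, which also pairs with ITGAV, was read at 60.6, 47.2 and 59.4 CPM in HN6 ACLY libraries and at 18.2, 14.8 and 17.6 CPM in vector libraries. This 3.31-fold rise (log2 1.73, SE 0.101, edgeR adjusted p = 2.43e-14) was the largest of the 11 after that of ITGB3. ITGB3, another partner of ITGAV, had 175 counts over the ACLY libraries and 13 over the vector libraries, with 1 vector library at 0 (12.5-fold, edgeR adjusted p = 4.89e-08). ITGB5 and ITGB2 did not pass the test, and ITGB1 rose by 0.16 on the log2 scale (edgeR adjusted p = 0.0066), a call lost without HN6 vector replicate 2 (0.13, adjusted p = 0.0609).

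Of the collagen-binding alpha chains, ITGA2 had 299, 287 and 299 CPM in HN6 ACLY libraries against 171, 153 and 159 CPM in vector libraries, a 1.83-fold rise (edgeR adjusted p = 1.16e-15). ITGA1, its neighbour on chromosome 5 at a distance of 30.1 kb, was 1.75-fold higher, at 17.7 ± 0.371 CPM with ACLY and 10.1 ± 1.58 CPM with vector (edgeR adjusted p = 4.58e-07). ITGA1 is uncertain because PELO, a more highly read gene on the same strand, lies within it. In contrast, the laminin-binding chain ITGA6 fell to 689, 700 and 719 CPM with ACLY, against 1204, 1068 and 1044 CPM with vector. That fall was 0.65 on the log2 scale (edgeR adjusted p = 2.97e-13), and the groups did not overlap. ITGB4, the partner of ITGA6 in hemidesmosomes, did not pass the test, and ITGAE fell by 0.30. ITGA3, another laminin-binding chain, fell by 0.12, a call lost under library totals (-0.06, adjusted p = 0.269) and without HN6 ACLY replicate 1, ACLY replicate 3 or vector replicate 3 (adjusted p = 0.0743, 0.101 and 0.0681).

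**Figure D3:**
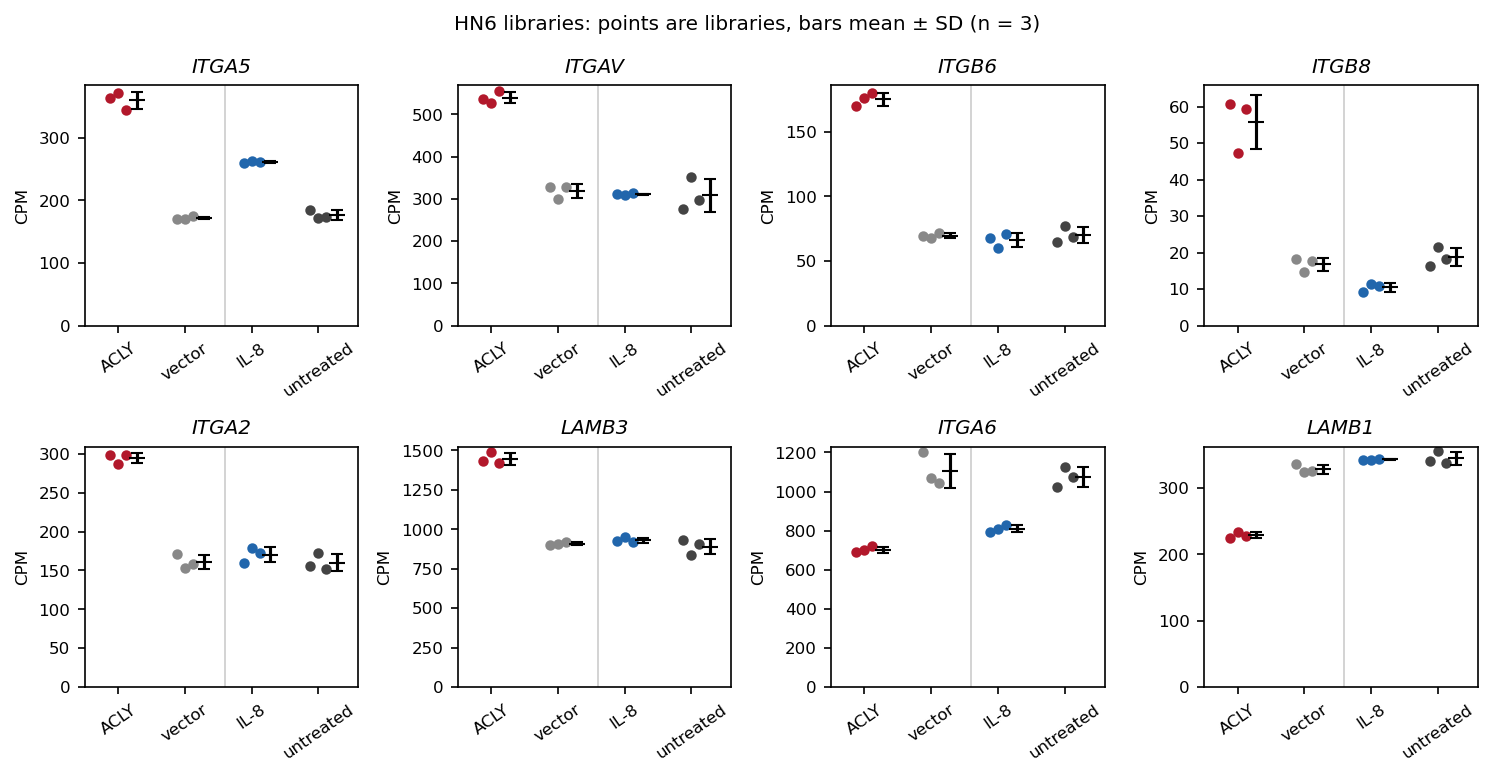
CPM of 8 members in the HN6 libraries by group, ACLY beside vector and IL-8 beside untreated. Each point is a library and each bar the mean ± SD of 3, with every axis starting at 0. ACLY libraries lie above vector for ITGA5, ITGAV, ITGB6, ITGB8, ITGA2 and LAMB3 and below for ITGA6 and LAMB1, while of these 8 only ITGA5, ITGA6 and ITGB8 were called for IL-8.

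Laminin beta chains of HN6 moved in both directions with ACLY. LAMB3 had 1431, 1491 and 1418 CPM with ACLY against 899, 907 and 919 CPM with vector, a 1.59-fold rise (edgeR adjusted p = 7.68e-14). LAMB2 rose 1.65-fold to 112 ± 3.62 CPM, against 67.9 ± 1.29 CPM with vector (edgeR adjusted p = 4.54e-13). LAMB1 fell by 0.52 on the log2 scale, to 229 ± 4.85 CPM with ACLY against 328 ± 6.36 CPM with vector (edgeR adjusted p = 6.19e-12). LAMB1 made up 7.97% of the laminin beta class with ACLY and 16.5% with vector. Of the alpha chains, LAMA1 rose 1.97-fold from low counts (161 with ACLY and 78 with vector), LAMA3 fell by 0.19, and LAMA5 did not pass the test.

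The promoters of the partners ITGAV and ITGB6, and that of ITGA6, are shown because these 3 genes, all on chromosome 2, carried the opposed changes of HN6. Windows of 250 bases before the RefSeq start (GRCh38.p14) were matched for 26 of the 36 members, and the windows printed stop where an annotated exon of the gene begins. Where a gene had several RefSeq starts, only the one nearest its annotated gene start was used. ITGAV and ITGA6 have 2 starts each, so the motifs and base composition given for them hold for 1 of these. Capitals mark a match to 1 of 4 motifs on either strand: AP-1 (TGANTCA), GC box (GGGCGG), TEAD (GGAATG) and E-box (CACGTG). These are sequences alone, 5′ to 3′ on the gene's strand, and no binding was measured.
ITGAV, chr2:186589806-186590055, plus strand: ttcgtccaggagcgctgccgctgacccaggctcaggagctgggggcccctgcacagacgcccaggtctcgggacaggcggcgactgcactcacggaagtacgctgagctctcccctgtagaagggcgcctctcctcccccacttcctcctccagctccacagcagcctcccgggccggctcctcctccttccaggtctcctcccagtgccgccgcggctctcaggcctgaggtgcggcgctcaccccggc
ITGB6, chr2:160200314-160200522, minus strand: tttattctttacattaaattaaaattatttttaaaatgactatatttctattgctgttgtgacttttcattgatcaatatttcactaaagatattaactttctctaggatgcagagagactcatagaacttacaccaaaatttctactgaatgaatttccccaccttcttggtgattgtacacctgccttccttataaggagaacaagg
ITGA6, chr2:172427086-172427335, plus strand: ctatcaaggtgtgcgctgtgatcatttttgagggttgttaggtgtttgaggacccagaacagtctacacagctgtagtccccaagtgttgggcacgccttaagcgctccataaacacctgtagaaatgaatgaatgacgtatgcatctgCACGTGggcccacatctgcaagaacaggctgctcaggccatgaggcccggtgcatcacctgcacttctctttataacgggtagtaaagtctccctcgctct

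The base composition of these windows differed: G and C made up 70.8% of the ITGAV window, 30.0% of that of ITGB6 and 50.8% of that of ITGA6 (over the full 250 bases). ITGAV and ITGB6 held none of the 4 motifs, and ITGA6 held 1 E-box, which 6.3% of 35116 RefSeq windows hold. ITGA5 held 1 GC box and 1 TEAD match, and ITGB8 held 2 GC boxes. Across the 26 members, 13 held a GC box (42.6% of all windows), 4 a TEAD match (11.9% of all windows) and 1, LAMA3, an AP-1 match (6.6% of all windows).

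HN6 cells given IL-8 held less ITGB8 and ITGA6 and more ITGA5. Of 30 members tested, 3 rose and 3 fell, where 15.4% of all genes were called (7.61% higher and 7.81% lower). Under library totals the split was 4 and 3, and 1695 against 939 over all genes, where it was 1400 against 1437 with TMM. ITGB8 was at 9.09, 11.5 and 10.9 CPM in IL-8 libraries against 16.4, 21.5 and 18.4 CPM in untreated libraries, with no overlap. It fell by 0.83 on the log2 scale (SE 0.138, edgeR adjusted p = 0.000572). ITGA10, a collagen-binding alpha chain of cartilage, fell by 1.16 from low counts, 34 with IL-8 and 74 untreated (edgeR adjusted p = 0.0137), and lost its call without HN6 untreated replicate 2 (-1.07, adjusted p = 0.0595) or HN6 IL-8 replicate 1 (-1.13, adjusted p = 0.0533).

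ITGA5 had 260, 262 and 261 CPM in HN6 IL-8 libraries against 185, 172 and 173 CPM in untreated libraries, a 1.49-fold rise (edgeR adjusted p = 0.000908). ITGA6 fell by 0.40, to 809 ± 17.5 CPM with IL-8 against 1076 ± 50.7 CPM untreated (edgeR adjusted p = 0.00107). LAMA5 and LAMC1, chains of the main laminin of mature basement membranes, each rose 1.23-fold (edgeR adjusted p = 0.0122 and 0.0355). The LAMC1 call was lost when any 1 of the 6 HN6 libraries was left out (adjusted p = 0.0534 to 0.116), and that of LAMA5 without HN6 untreated replicate 3 (adjusted p = 0.0586). The median change over the tested members was 0.02, against 0.00 over all genes. Because all 18 libraries share 1 estimate of the spread, Cal27 IL-8 replicate 3 bears on these calls: without it 13 of 31 members were called, where 32.7% of all genes were. With the 6 HN6 libraries alone, 11 of 25 were called, and more genes over the whole table were called as well. LAMA5 and LAMC1 kept their calls without Cal27 IL-8 replicate 3 (edgeR adjusted p = 7.84e-05 and 6.88e-07). They also kept them with the 6 HN6 libraries alone (edgeR adjusted p = 4.23e-06 and 9.41e-06).

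In HN4, IL-8 changed 4 of 30 members, 1 higher and 3 lower, 13.3% of those tested and near the 14.0% of all genes called (6.89% higher and 7.09% lower). Under library totals the split was 0 and 4, and 792 against 1586 over all genes, where it was 1268 against 1304 with TMM. ITGB2 had 53.3, 49.1 and 49.7 CPM with IL-8 against 78.0, 78.9 and 79.2 CPM untreated, and the groups did not overlap. The fall was 0.63 on the log2 scale (SE 0.106, edgeR adjusted p = 0.000748). LAMB3 fell by 0.54, to 1083 ± 17.5 CPM with IL-8 against 1577 ± 19.1 CPM untreated (edgeR adjusted p = 0.0204). ITGB6 fell by 0.50 (edgeR adjusted p = 0.0161) and ITGA6 rose by 0.23 (edgeR adjusted p = 0.0413). ITGB2 kept its call without any 1 library, but the LAMB3 call was lost without any 1 of the 6 HN4 libraries (adjusted p = 0.0535 to 0.0717). The ITGB6 call was lost without HN4 IL-8 replicate 1 or 2 or untreated replicate 2 or 3 (adjusted p = 0.0527 to 0.062). The ITGA6 call was lost under 15 of the 25 alternatives (adjusted p = 0.0505 to 0.195), among them library totals, upper-quartile factors, the replicate block (adjusted p = 0.0505), no filter, and leaving out any 1 HN4 untreated library or HN4 IL-8 replicate 2 or 3. Without Cal27 IL-8 replicate 3, 11 of 31 members were called, 2 higher and 9 lower, where 30.3% of all genes were called. ITGA2 was then called at -0.35 (edgeR adjusted p = 1.45e-06) and ITGB4 at -0.29 (edgeR adjusted p = 1.06e-05). LAMB3, ITGB6 and ITGA6 kept their calls without that library (edgeR adjusted p = 1.06e-12, 8.26e-08 and 0.000105). With the 6 HN4 libraries alone they kept them too (edgeR adjusted p = 9.25e-18, 2.01e-11 and 7.43e-06).

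HN4 libraries labelled ACLY differed from those labelled vector in 17 of 31 members, 15 higher and 2 lower, where 18.9% of all genes were higher and 19.1% lower (38.1% in all). With upper-quartile factors the split was 17 and 1, and 4399 against 2742 over all genes. The members' median log2 difference was 0.18, against 0.01 over all genes. LAMB3 was at 1789, 1757 and 2035 CPM in libraries labelled ACLY and 958, 983 and 983 CPM in those labelled vector, a 1.92-fold difference (edgeR adjusted p = 8.6e-17). ITGB2 had 83.6, 80.9 and 92.2 CPM in libraries labelled ACLY against 44.6, 45.4 and 48.5 CPM in those labelled vector (1.86-fold, edgeR adjusted p = 1.08e-11). ITGB6 was higher by 1.72-fold and ITGA2 by 1.51-fold in the libraries labelled ACLY, and the 3 and 3 libraries did not overlap for either.

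Low counts behind some HN4 calls were ITGAM, with 16 counts in libraries labelled ACLY and 1 in those labelled vector, and ITGB3, with 36 and 9, a call lost without HN4 vector replicate 1 (1.61, adjusted p = 0.0511). ITGAE fell by 0.55 in the libraries labelled ACLY. ITGA6 fell by 0.15, a call lost under 8 of the 25 alternatives (adjusted p = 0.0579 to 0.172), among them library totals, upper-quartile factors, the 6 libraries alone, and leaving out HN4 ACLY replicate 1 or 2 or vector replicate 1 or 3. ITGAE, which pairs with ITGB7 on lymphocytes within epithelium, is uncertain because HASPIN lies within it on the opposite strand. The levels of ITGB2 in the 4 HN4 groups were 50.7 ± 2.29 CPM with IL-8, 78.7 ± 0.654 CPM untreated, 85.5 ± 5.89 CPM labelled ACLY and 46.2 ± 2.07 CPM labelled vector. ACLY itself was at 1352 ± 18.1 CPM in HN4 with IL-8, and at 1509 ± 10.0 CPM in those labelled vector; the 2 HN4 groups with more ACLY had the lower ITGB2 levels, and their samples belong to separate experiments.

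**Figure D4:**
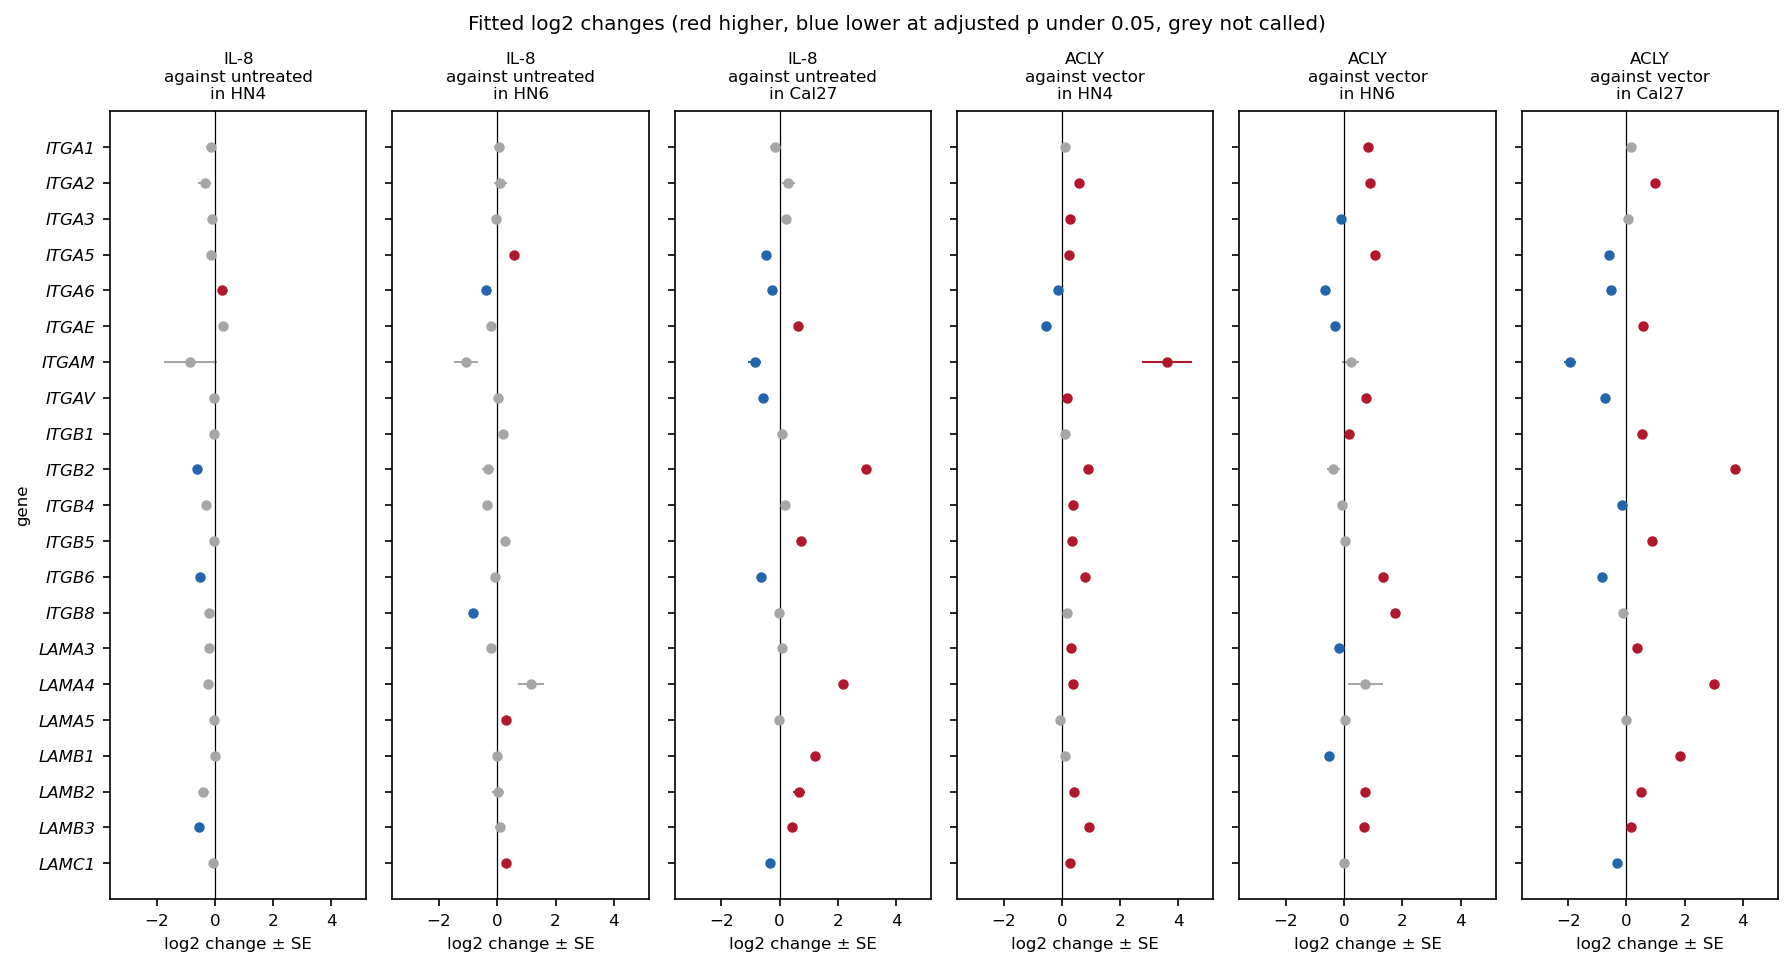
Fitted log2 changes with SE bars for the 21 members with a mean of at least 0.3 per kilobase, 1 panel for each treatment comparison. Red points are called higher, blue points lower and grey points not called, with 16 of 31 members called for ACLY in HN6 and 20 of 31 in Cal27.

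Cal27 cells with the ACLY plasmid held more ITGB2, LAMA4 and LAMB1 and less ITGAX, ITGAM and ITGA4, chains that set Cal27 and HN4 controls apart. Of 31 members, 10 rose and 10 fell, 64.5% of those tested, where 63.2% of all genes were called (34.2% higher and 29.0% lower). With upper-quartile factors, which shifted all genes by -0.15, the split was 9 and 15, and 4995 against 6861 over all genes. The median was -0.04, against 0.03 over all genes. Beside these changes stand the line-read genes, at 54.1% of the HN4 level for those of HN4 and 24.6% of the Cal27 level for those of Cal27 in the Cal27 ACLY libraries; their part in the result was not tested.

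ITGB2 was at 33.3, 33.6 and 33.6 CPM in Cal27 ACLY libraries against 2.69, 2.28 and 2.45 CPM in vector libraries, a 13.4-fold rise (log2 3.74, SE 0.11, edgeR adjusted p = 6.14e-25). Untreated HN4 held 78.7 ± 0.654 CPM. LAMA4 had 16.6, 17.9 and 16.5 CPM with ACLY against 1.49, 2.70 and 2.08 CPM with vector (8.07-fold, edgeR adjusted p = 3.43e-18), and untreated HN4 held 38.8 ± 1.01 CPM. LAMB1 rose 3.58-fold, to 280, 268 and 283 CPM with ACLY against 73.6, 78.2 and 78.2 CPM with vector (edgeR adjusted p = 1.25e-26), and untreated HN4 held 492 ± 7.95 CPM. For these 3 genes the Cal27 ACLY libraries lay between the Cal27 vector and the HN4 untreated libraries. ITGA2 and ITGB5 did so as well, with rises of 1.97-fold (edgeR adjusted p = 3.73e-17) and 1.81-fold (edgeR adjusted p = 3.58e-14). Of the 20 members called, 13 had a Cal27 ACLY mean between those of Cal27 vector and untreated HN4, and 7 did not. The same share over all called genes was not computed, so this number is not a result about integrins and laminins. ITGB6 was at 10.6 per kilobase with ACLY and 18.9 with vector, where untreated HN4 held 19.9. LAMC1 was at 20.8 per kilobase with ACLY and 25.6 with vector, where untreated HN4 held 32.2. Both therefore lay farther from HN4 with ACLY. The means of ITGA5, ITGA10, ITGAE, ITGAV and ITGB4 passed the HN4 level, with ITGA5 at 15.4 per kilobase with ACLY and 23.0 with vector, where untreated HN4 held 17.7.

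Marker levels also differed between these Cal27 groups, beside the rise of the leukocyte chain ITGB2. The leukocyte markers summed to 427 to 449.6 CPM in Cal27 ACLY libraries and 98.1 to 102 CPM in vector libraries, mostly as LCP1, with PTPRC at 0.0369 CPM in the ACLY libraries and at 0 counts in the vector libraries. The squamous markers summed to 4015 to 4209 CPM with ACLY and 6896 to 7594 CPM with vector. Of these, KRT5 was at 1692 ± 51.8 CPM with ACLY and 3341 ± 249 CPM with vector. KRT14 was at 397 ± 18.4 CPM with ACLY and 1056 ± 72.1 CPM with vector, and TP63 was at 219 ± 3.05 CPM with ACLY and 591 ± 17.9 CPM with vector. Their part in the result was not tested.

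The myeloid chains ITGAX and ITGAM fell in Cal27 with ACLY, where ITGB2 rose. Their means also lay between those of Cal27 vector and untreated HN4, which held 0.00515 per kilobase of ITGAX and 0.0265 of ITGAM. ITGAX fell by 3.01 on the log2 scale, to 0.91, 0.302 and 0.742 CPM with ACLY against 5.77, 4.77 and 5.10 CPM with vector (edgeR adjusted p = 1.69e-09). ITGAM fell by 1.95, to 2.41, 1.91 and 2.45 CPM against 8.85, 9.75 and 7.29 CPM with vector (edgeR adjusted p = 3.87e-10). ITGA4, an alpha chain of lymphocytes that binds VCAM1 and fibronectin, had 16 counts with ACLY and 112 with vector (edgeR adjusted p = 8.54e-05). ITGA10 had 32 counts with ACLY and 74 with vector (edgeR adjusted p = 0.00886). No ACLY library overlapped a vector library for any of these 4 genes.

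Of the 11 chains that rose in HN6 with ACLY, 3 fell in Cal27 (ITGA5, ITGAV and ITGB6), 4 rose there too (ITGA2, ITGB1, LAMB2 and LAMB3) and 4 did not pass the test (ITGA1, ITGB3, ITGB8 and LAMA1). ITGB6 was at 48.3, 48.9 and 51.7 CPM in Cal27 ACLY libraries against 87.2, 97.6 and 80.9 CPM in vector libraries, a fall of 0.85 (edgeR adjusted p = 2.2e-13). ITGAV fell by 0.74, to 219 ± 14.4 CPM with ACLY against 361 ± 25.1 CPM with vector (edgeR adjusted p = 1.33e-13). ITGA5 fell by 0.59, to 117 ± 1.34 CPM against 174 ± 7.08 CPM with vector (edgeR adjusted p = 9.68e-12). ITGB1 rose 1.44-fold and LAMB2 1.42-fold in Cal27, and LAMB3 1.13-fold, a call lost under library totals, upper-quartile factors, a mean of at least 5 CPM and DESeq2. ITGA6 fell by 0.52 in Cal27, as it did by 0.65 in HN6. For ITGA2, ITGB1, LAMB2, LAMB3 and ITGA6 the Cal27 ACLY means lay between those of Cal27 vector and untreated HN4. The HN4-read genes stood at 54.1% of their HN4 level in the Cal27 ACLY libraries, and their part in these changes was not tested.

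Cal27 with IL-8 had 15 of 30 members called, 7 higher and 8 lower, where 39.4% of all genes were called (22.7% higher and 16.7% lower). With upper-quartile factors the split was 6 and 9, and 3474 against 3949 over all genes. The median was 0.01, against 0.00 over all genes. ITGB2 had 20.6, 19.6 and 18.5 CPM with IL-8 against 2.93, 2.37 and 2.08 CPM untreated (7.87-fold, edgeR adjusted p = 2.5e-11). LAMA4 rose 4.54-fold, to 10.9 ± 0.421 CPM with IL-8 against 2.38 ± 0.137 CPM untreated (edgeR adjusted p = 1.86e-10). LAMB1 had 194, 196 and 163 CPM with IL-8 against 73.2, 82.4 and 79.7 CPM untreated (2.33-fold, edgeR adjusted p = 2.32e-10). The HN4-read genes stood at 31.0% and the Cal27-read genes at 59.7% in these IL-8 libraries. The leukocyte markers summed to 264 to 296 CPM with IL-8 and 96.9 to 103 CPM untreated, with PTPRC at 0 counts in both groups. The squamous markers summed to 5193 to 6512 CPM with IL-8 and 6921 to 7509 CPM untreated. The part of these genes in the result was not tested. Of the 15 members called, 9 had a Cal27 IL-8 mean between those of untreated Cal27 and untreated HN4. Here too the share over all called genes was not computed, and the number is not a result about these chains.

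ITGB5, a vitronectin-binding partner of ITGAV, rose 1.67-fold, with 88.4, 93.3 and 113 CPM with IL-8 against 58.6, 55.1 and 61.1 CPM untreated (edgeR adjusted p = 7.56e-06). ITGAX fell by 1.17, to 2.61 ± 0.468 CPM with IL-8 against 5.83 ± 0.47 CPM untreated (edgeR adjusted p = 0.00189), and ITGAM by 0.86 (edgeR adjusted p = 0.00796). LAMB4, a minor beta chain, had 17 counts with IL-8 and 50 untreated (edgeR adjusted p = 0.00869), and its call was lost without Cal27 untreated replicate 3 (adjusted p = 0.0686).

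Cal27 IL-8 replicate 3 set the size of several other changes. LAMB2 had 83.1, 75.5 and 165 CPM with IL-8 against 71.0, 67.7 and 63.6 CPM untreated; its log2 change was 0.67 (edgeR adjusted p = 0.0117) and 0.21 without replicate 3 (edgeR adjusted p = 0.00601). ITGAE rose by 0.64, and by 0.42 without that library, while ITGB6 fell by 0.64, and by 0.45 without it. ITGA2 was at 215, 220 and 78.7 CPM with IL-8 against 122, 150 and 140 CPM untreated. It was not called with all libraries, and rose by 0.64 without replicate 3 (edgeR adjusted p = 4.77e-11). ITGA3 and ITGB4 in replicate 3 were at 1400 and 772 CPM, against 910 to 912 and 467 CPM in its companions. Without replicate 3, 19 of 31 members were called, where 41.7% of all genes were.

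**Figure D5:**
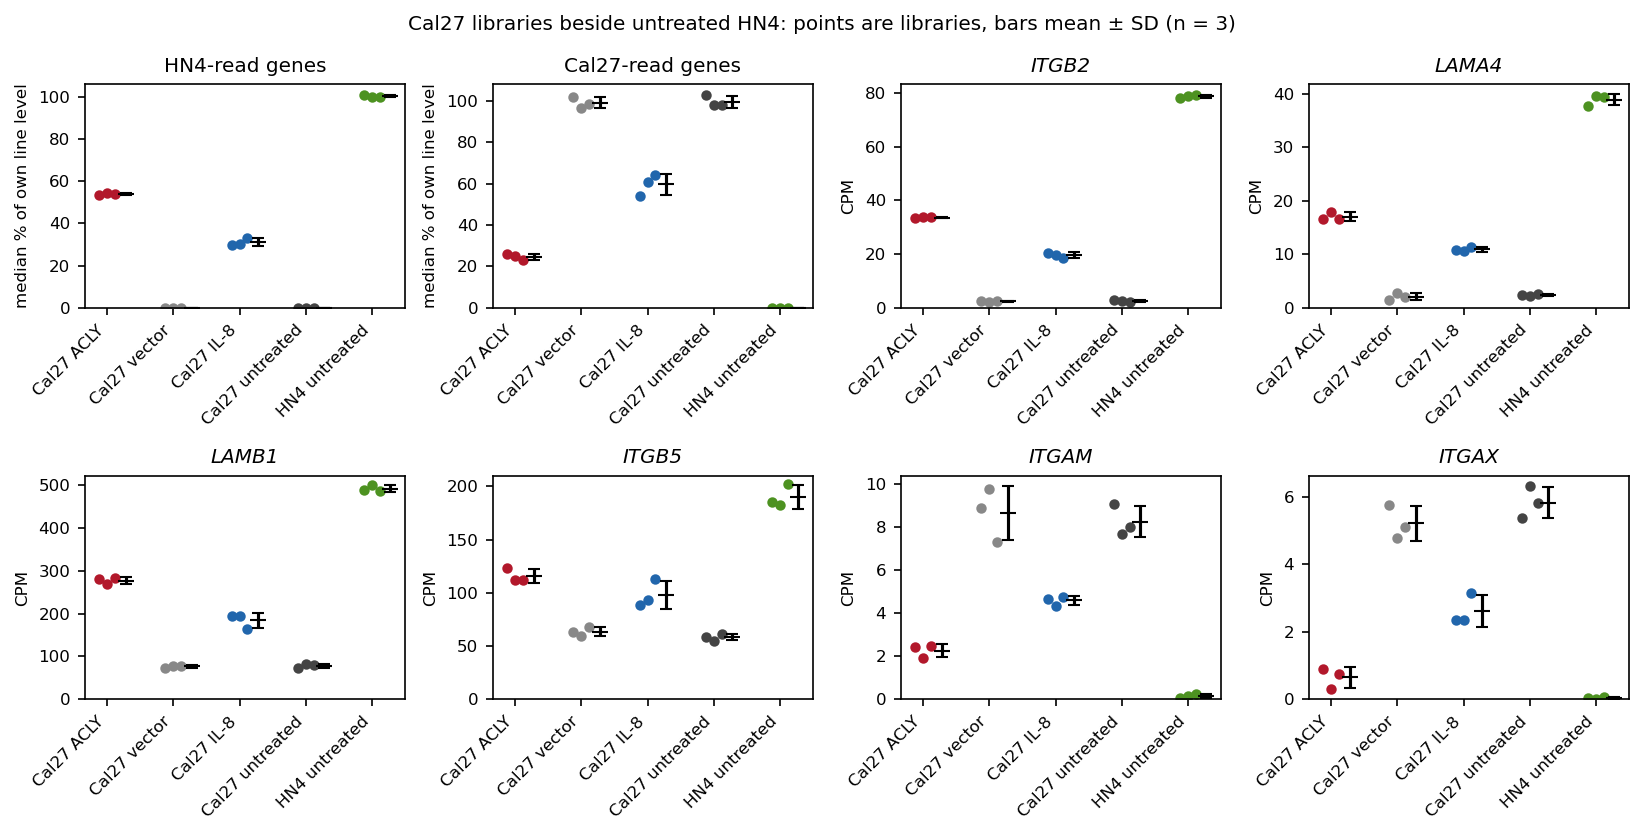
Cal27 ACLY, vector, IL-8 and untreated libraries beside untreated HN4, for the median share of line-read genes (percent of the level in their own line) and for 6 members (CPM). Points are libraries and bars mean ± SD of 3. By group mean, ITGB2, LAMA4, LAMB1, ITGB5, ITGAM and ITGAX in the treated Cal27 groups all lie between Cal27 controls and HN4. ITGB2 is at 33.5 CPM with ACLY and 19.5 CPM with IL-8. ITGAM and ITGAX lie below the Cal27 controls and above untreated HN4.

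Tested directly, the response differed among the 3 lines for 15 of 30 members with IL-8, where 40.2% of all genes differed, and for 23 of 31 with the plasmid, where 70.9% differed. ITGA5 with ACLY was higher in HN6 and lower in Cal27, a difference of -1.66 for Cal27 minus HN6 on the log2 scale (edgeR adjusted p = 8.01e-20). For ITGB6 that difference was -2.18 (edgeR adjusted p = 1.26e-20), for ITGAV -1.50 (edgeR adjusted p = 6.21e-18) and for ITGB8 -1.85 (edgeR adjusted p = 1.9e-12). With IL-8, ITGA5 differed by -1.06 between Cal27 and HN6 (edgeR adjusted p = 2.73e-05), and LAMB1 by 1.21 (edgeR adjusted p = 3.95e-08). LAMA5 with the plasmid gave no detectable difference among lines (edgeR adjusted p = 0.484).

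The genes that work with integrins and laminins were read from 4 lists. Among 7 hemidesmosome partners, IL-8 raised 2 and lowered 0 in HN4, 0 and 2 in HN6, and 2 and 3 in Cal27, while ACLY raised 0 and lowered 3 in HN4 as labelled, 1 and 4 in HN6, and 2 and 5 in Cal27. In HN4, HN6 and Cal27 the list thus had 28.6%, 28.6% and 71.4% of its genes called with IL-8, where 14.0%, 15.4% and 39.4% of all genes were. With ACLY it had 42.9%, 71.4% and 100.0% called, where 38.1%, 51.6% and 63.2% of all genes were. The calls in HN4 and HN6 include KRT14, which was hardly read there. In HN4 it was at 0 CPM labelled ACLY and 0.0927 CPM labelled vector, so the 42.9% includes a call that rests on almost no counts. In HN6 it was at 0.457 CPM with ACLY and 0.798 CPM with vector. COL17A1, the collagen that spans the hemidesmosome, fell by 0.81 in HN6 with ACLY, to 178 ± 8.38 CPM against 313 ± 5.95 CPM with vector (edgeR adjusted p = 3.33e-15). PLEC, the linker to keratin, fell by 0.70 in the same comparison, to 808 ± 26.5 CPM with ACLY against 1315 ± 23.8 CPM with vector (edgeR adjusted p = 6.77e-10). The median of the list there was -0.25, against 0.04 over all genes. With IL-8 in HN6, DST, another keratin linker, fell by 0.65 (edgeR adjusted p = 0.000604) and COL17A1 by 0.59 (edgeR adjusted p = 1.01e-05). Other lines did not all share these directions. PLEC was called higher in Cal27, by 2.17 with ACLY and 1.84 with IL-8 on the log2 scale. COL17A1 was higher by 0.72 in HN4 with IL-8 and lower by 0.70 in HN4 as labelled ACLY. In Cal27 it was lower by 1.53 with ACLY and 0.74 with IL-8.

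Of 30 integrin activators and adhesion adaptors tested, IL-8 raised 3 and lowered 1 in HN4, 2 and 2 in HN6, and 7 and 11 in Cal27, and ACLY raised 6 and lowered 7 in HN4 as labelled, 8 and 13 in HN6, and 13 and 11 in Cal27. With IL-8 the share called was 13.3% in HN4 and 13.3% in HN6, near the 14.0% and 15.4% of all genes, and 18 of 30 were called in Cal27, where 39.4% of all genes were. With ACLY it was 43.3% in HN4, 70.0% in HN6 and 80.0% in Cal27, where 38.1%, 51.6% and 63.2% of all genes were called. NEDD9, a scaffold of focal adhesion signalling, rose 2.66-fold in HN6 with ACLY, to 234 ± 6.37 CPM against 88.2 ± 4.63 CPM with vector (edgeR adjusted p = 2.45e-18). It rose 1.54-fold in HN6 with IL-8 (edgeR adjusted p = 0.000359). In the other lines NEDD9 was called lower with IL-8, by 0.99 in HN4 and 0.92 in Cal27 on the log2 scale. With ACLY it was lower by 1.56 in Cal27 and higher by 0.86 in HN4 as labelled. CAV1, the caveolar coat protein, fell by 0.79 in HN6 with ACLY (edgeR adjusted p = 5.73e-14). The list median for ACLY in HN6 was -0.08, against 0.04 over all genes.

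Of 20 basement membrane partners and other laminin receptors tested, ACLY raised 7 and lowered 5 in HN6, 7 and 5 in Cal27, and 6 and 5 in HN4 as labelled. IL-8 raised 2 and lowered 3 in HN4, 6 and 1 in HN6, and 2 and 4 in Cal27. With ACLY, 12 of the 20 were called in both HN6 and Cal27, near the 51.6% and 63.2% of all genes, and 11 in HN4, where 38.1% of all genes were. With IL-8, 5 of the 20 were called in HN4, 7 in HN6 and 6 in Cal27, where 14.0%, 15.4% and 39.4% of all genes were. The heparan sulfate proteoglycan gene HSPG2 rose 1.39-fold in HN6 with IL-8, to 302 ± 4.83 CPM against 219 ± 10.6 CPM untreated (edgeR adjusted p = 0.000443). SDC1, a syndecan co-receptor, fell by 0.67 in HN6 with ACLY (edgeR adjusted p = 1.37e-12).

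Integrin ligands numbered 19 tested genes. ACLY raised 11 and lowered 3 in HN6, 6 and 11 in Cal27, and 5 and 5 in HN4 as labelled, with list medians of 0.50, -0.28 and -0.02, against 0.04, 0.03 and 0.01 over all genes. In the same order 73.7%, 89.5% and 52.6% of the list was called, where 51.6%, 63.2% and 38.1% of all genes were. IL-8 raised 5 and lowered 3 in HN4, 4 and 3 in HN6, and 6 and 8 in Cal27, which is 42.1%, 36.8% and 73.7% of the list, where 14.0%, 15.4% and 39.4% of all genes were called. THBS1, a matricellular ligand, fell by 1.76 in HN6 with ACLY, to 384 ± 4.26 CPM against 1302 ± 70.6 CPM with vector (edgeR adjusted p = 5.68e-24). In the same comparison the collagen gene COL1A1 rose 3.04-fold (edgeR adjusted p = 8.3e-11) and EDIL3, a ligand of ITGAV integrins, 1.89-fold (edgeR adjusted p = 5.22e-11). With IL-8, THBS1 was called lower by 0.70 in HN6 and higher by 0.78 in HN4 and 1.14 in Cal27. It was lower by 1.16 in HN4 as labelled ACLY. Fibroblast and muscle markers, which include COL1A1, summed to 56.7 to 64.1 CPM in HN6 ACLY libraries and 22.3 to 25.2 CPM in HN6 vector libraries, with DCN at 0 counts in both; their part in the result was not tested.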

How the data were processed

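The authors deposited whole-number gene counts, not normalized, for 36 libraries; the poly-A selected RNA and random priming are per the labels' protocols. HISAT2 2.0.5 and featureCounts 1.5.0-p3, beside CASAVA and DESeq2, are named with build hg38 in the submitters' processing notes. How strand and multiply matching reads were handled was not given in the sources used here. Gene coordinates of all 58735 genes are those of GENCODE 29.

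Each experiment (18 libraries, 6 groups) was fitted in R 4.3.3 by edgeR 4.0.16, with limma 3.58.1 loaded. Genes passed filterByExpr on the groups (minimum count 10, minimum total 15). The fit used TMM factors, a robust quasi-likelihood model with 12 residual degrees of freedom, two-sided tests, Benjamini-Hochberg adjustment over 18398 (IL-8) or 18556 (plasmid) genes at 0.05. The fit was tested on simulated data. The filter kept 30 members in the IL-8 and 31 in the plasmid experiment: ITGA8, ITGA11, ITGAL, ITGB7 and LAMC3 failed it in both, ITGB3 in the IL-8 experiment. Levels use TMM factors over all 36 libraries. Differences among lines were tested with both interaction terms together.

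Values in full are given for called members changed at least 1.5-fold by a treatment or 4-fold between lines; others were chosen after their values were seen. The Cal27-read rule was added after the data were seen. The members and lists were chosen with earlier results of these data known. No 2 replicates agreed within sampling noise by a chi-square test of their counts, and each library was counted as 1 sample. Alternatives were DESeq2 1.42.0, library totals, upper-quartile factors, no filter, a mean of 5 CPM, the 6 libraries compared alone (for lines, their 6), a replicate block, and each library left out.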

Additional observations from a re-analysis of the deposited data

Results flagged for a closer look

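With edgeR's interaction test, adjusted over all genes tested, the response differed among HN4, HN6 and Cal27 for 15 of 30 members with IL-8. With the plasmid it differed for 23 of 31 members. Of all genes tested, 40.2% differed with IL-8 and 70.9% with the plasmid. Whether the members exceeded these shares was not tested, and no cause was tested. HN4 plasmid libraries enter as labelled, and the treated Cal27 libraries held HN4-read genes at 31.0% (IL-8) and 54.1% (ACLY). With IL-8, the laminin chains were LAMA4 (adjusted p = 7.04e-09), LAMB1 (adjusted p = 1.79e-08), LAMC1 (adjusted p = 0.00318), LAMB3 (adjusted p = 0.00399), LAMB2 (adjusted p = 0.014), LAMA1 (adjusted p = 0.0206) and LAMA5 (adjusted p = 0.0307). The integrin chains were ITGB2 (adjusted p = 2.11e-10), ITGA5 (adjusted p = 5.83e-05), ITGA6 (adjusted p = 0.000251), ITGB5 (adjusted p = 0.000435), ITGAE (adjusted p = 0.00559), ITGB8 (adjusted p = 0.00633), ITGAV (adjusted p = 0.0338) and ITGB6 (adjusted p = 0.0409). ITGB8 fell by 0.83 in HN6, and its log2 change there differed from that in Cal27 by 0.80 (Cal27 minus HN6, edgeR adjusted p = 0.00348).

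With the plasmid, the laminin chains were LAMB1 (adjusted p = 2.42e-25), LAMA4 (adjusted p = 2.1e-13), LAMB3 (adjusted p = 2.98e-11), LAMA3 (adjusted p = 2.43e-09), LAMC1 (adjusted p = 8.22e-09), LAMA1 (adjusted p = 0.000382) and LAMB2 (adjusted p = 0.00212). Among integrin beta chains they were ITGB6 (adjusted p = 2.38e-20), ITGB2 (adjusted p = 3.12e-19), ITGB8 (adjusted p = 2.35e-12), ITGB5 (adjusted p = 1.43e-09), ITGB4 (adjusted p = 3.63e-09) and ITGB1 (adjusted p = 2.2e-06). Among alpha chains they were ITGA5 (adjusted p = 3.82e-19), ITGAV (adjusted p = 2.54e-17), ITGAE (adjusted p = 1.44e-09), ITGAM (adjusted p = 2.72e-08), ITGA6 (adjusted p = 3.83e-07), ITGA3 (adjusted p = 7.69e-06), ITGAX (adjusted p = 1.25e-05), ITGA2 (adjusted p = 8.08e-05), ITGA1 (adjusted p = 0.000458) and ITGA4 (adjusted p = 0.0015). LAMB1 fell by 0.52 in HN6 and rose by 1.84 in Cal27. ITGA6 fell by 0.65 in HN6 and by 0.52 in Cal27. In HN4 its log2 difference was -0.15 as labelled, a call lost under 8 of 25 alternatives, and the ACLY levels of the HN4 libraries go against their labels.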

How the results depend on the processing

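The 82 called changes of at least 1.5-fold by treatment or 4-fold between lines kept their direction under the alternatives run: of 2008 values, 18 lost significance, in ITGA10, ITGAE, ITGAX, ITGB3, ITGB6, LAMB2 and LAMB4. Smaller calls moved more: LAMB3 for ACLY in Cal27 (0.17) was lost under library totals (0.08), upper-quartile factors (0.02), a mean of at least 5 CPM (0.04) and DESeq2 (0.11, adjusted p = 0.0563).

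With only the 6 libraries compared, the members called for IL-8 were 14 in HN4, 11 in HN6 and 7 in Cal27. Among all genes, 6551, 6025 and 2588 were then called, against 2572, 2837 and 7247 with all 18 libraries. In Cal27 the members ITGAE, ITGB6 and LAMB2 then lost their calls (adjusted p = 0.0591, 0.0628 and 0.161). The calls of ITGA5, ITGA6, ITGAV, LAMB3 and LAMC1 were lost there as well (adjusted p = 0.0861, 0.155, 0.1, 0.225 and 0.167). With a mean of at least 5 CPM, Cal27 against HN6 untreated had 15 of 20 members called (8196 genes, against 12583 as reported), since fewer were tested. Leaving out 1 library gave 1 to 11 called members for IL-8 in HN4 (1401 to 5738 genes), 4 to 13 in HN6 (1742 to 6194 genes) and 13 to 19 in Cal27 (5486 to 7884 genes). The highest count in each line came without Cal27 IL-8 replicate 3. The count was 1 or 2 in HN4 without any 1 of its untreated libraries or IL-8 replicate 2 or 3, and 4 in HN6 without untreated replicate 2 or 3 or IL-8 replicate 1. For ACLY the ranges were 15 to 19 in HN4 (6083 to 7190 genes), 15 to 17 in HN6 (8733 to 10270 genes) and 20 to 21 in Cal27 (10896 to 12399 genes). Between lines the order is HN6 against HN4, Cal27 against HN4, Cal27 against HN6. Untreated, the ranges were 23 to 27, 18 to 24 and 21 to 29 (11644 to 13962, 10892 to 13596 and 11926 to 14251 genes). With vector they were 23 to 27, 21 to 25 and 23 to 28 (12334 to 13403, 12791 to 13994 and 13166 to 14280 genes). For differences among lines they were 11 to 20 with IL-8 (6362 to 10295 genes) and 23 to 25 with the plasmid (12710 to 13683 genes).

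The replicate numbers share only a number: correlations of deviations did not exceed 0.1 in every pair of any comparison. With the replicate block, members called for IL-8 were 3 in HN4, 6 in HN6 and 15 in Cal27, and for ACLY 17, 16 and 20. Without the block, IL-8 gave 4, 6 and 15, where 14.0%, 15.4% and 39.4% of all genes were called. For ACLY that fit gave 17, 16 and 20, where 38.1%, 51.6% and 63.2% of all genes were called. The shares of all genes with the block are not given here. In HN6 with ACLY and vector, 3 of 3 numbers correlated best with their own, at 0.029 to 0.068.

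Vector Cal27 against HN4 had 12 members higher and 10 lower with upper-quartile factors, which shifted all genes by 0.18. With TMM it had 11 higher and 14 lower, where 35.6% of all genes were higher and 36.1% lower. The shares of all genes with upper-quartile factors are not given here. Scaling by library totals moved 63 of 432 group levels by over 1 SD. ITGB7, ITGAL, ITGA11, ITGA8 and LAMC3 were limited by depth.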

Other observations

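The 6 genes read in HN6 alone stood at a median of 86.2% ± 0.519 of the untreated HN6 level in HN6 ACLY libraries and 100.5% ± 3.44 in HN6 vector libraries (SD, n = 3 each), and under 0.2% in every HN4 and Cal27 group.

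ITGB3 was too low for the IL-8 fit but was counted in every group of HN6: 50 counts over the IL-8 libraries, 11 over the untreated libraries, 175 over the ACLY libraries and 13 over the vector libraries. In Cal27 it had 8 counts with IL-8, 0 untreated, 7 with ACLY and 3 with vector. Without Cal27 IL-8 replicate 3 the gene passed the filter, and HN6 IL-8 against untreated gave a log2 difference of 2.10 (edgeR adjusted p = 0.0112).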
